A study of Mus musculus with 6 samples.

Results

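The Janus kinases of the mouse are encoded by 4 genes, Jak1, Jak2, Jak3 and Tyk2, and all 4 were found by gene symbol in a deposited table of 28789 genes. RNA had been sequenced from 6 samples of TCMK1, a mouse line of renal tubular epithelial cells, and every sample had received angiotensin II (Ang II). The labels place 3 samples in a control group and 3 in a group that overexpresses YOD1, a deubiquitinase. The control genotype is given as control only, the extraction text speaks of an adipose type, and neither an empty vector nor the way YOD1 was introduced is named in the sources used here. The extraction text also names both poly(A)- and poly(A)+ fractions, so which RNA was sequenced is not certain. Nothing says that the 3 samples of a group came from separate cultures, so the spread behind each p-value is that between these samples and may be technical.

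Janus kinases are cytoplasmic tyrosine kinases that sit on the inner tails of cytokine receptors, which have no kinase of their own. When a cytokine brings receptor chains together, the kinases phosphorylate each other, the receptor and then STAT transcription factors, which move to the nucleus. JAK1 serves interferon, gp130 and common gamma chain receptors, JAK2 serves hormone-type receptors and the interferon-gamma receptor, TYK2 serves the type I interferon and IL-12 receptors, and JAK3 binds the common gamma chain and is best known from lymphocytes. The title of the series names JAK2 as a protein that YOD1 stabilises; transcript levels do not measure protein stability.

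Levels are given in FPKM, fragments per transcript length and library size, a scale per length on which genes may be set against each other. Library sums ran from 314172 to 352209 FPKM, and 22045 to 23374 genes were above 0 in a library. Read depth is unknown from FPKM. Yod1 itself stood at 0.842, 0.757 and 0.684 FPKM in controls 1 to 3 and at 1.73, 7.56 and 1.86 FPKM in YOD1 libraries 1 to 3. All 3 YOD1 libraries lay above the controls (log2 fold change 1.21, limma adjusted p = 0.141), and the reading may miss the transgene if its sequence was not the mouse one. Rn18s-rs5, an rRNA-derived transcript, was also higher in the YOD1 libraries, at 7638 to 12732 against 1324 to 2351 FPKM (limma adjusted p = 0.00631). With rRNA genes left out and a common library total, the members' log2 fold changes were -0.39 for Tyk2, -0.46 for Jak1, -0.35 for Jak2 and 0.095 for Jak3, with 0 of 4 passing limma (smallest adjusted p = 0.195). The labelled cell type was checked against 16 listed tubular markers, of which 14 had a value and 10 averaged at least 1 FPKM. Krt18, an epithelial keratin, ranged from 482 to 820 FPKM and the kidney cadherin Cdh16 from 49.8 to 73.4 FPKM, while the segment-specific transporters Slc34a1, Slc12a1 and Slc12a3 reached at most 0.0209 FPKM.

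All 4 Janus kinase transcripts were present, in the order Tyk2, Jak1, Jak3 and Jak2 in the controls. Tyk2 stood at 10.6, 12.1 and 10.2 FPKM in controls 1 to 3, and Jak1 at 8.06, 7.28 and 7.93 FPKM. Jak3 stood at 4.32, 5.70 and 4.85 FPKM, and Jak2 at 1.59, 1.16 and 2.39 FPKM. Each step in this order was larger than the spread in the controls, since the ranges of neighbouring genes did not overlap. The lymphoid kinase gene Jak3 was thus above Jak2 in each of the 6 libraries. In the YOD1 libraries Tyk2 was again highest and Jak2 lowest, while the ranges of Jak1 (3.84 to 7.24 FPKM) and Jak3 (4.36 to 7.19 FPKM) overlapped. YOD1 library 3 was the 1 library with Jak3 above Jak1, at 7.19 and 3.84 FPKM.

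**Figure D1:**
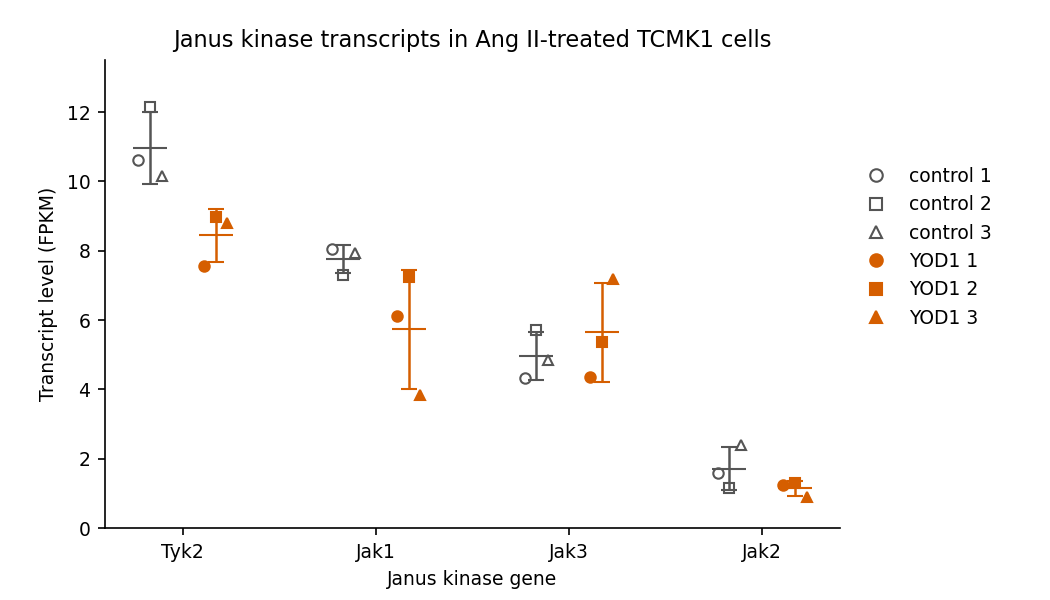
Level of each Janus kinase gene in FPKM (vertical axis) in 3 control libraries (open symbols) and 3 YOD1 libraries (filled symbols), with the mean as a bar and error bars of 1 SD. Tyk2 is highest in every library and Jak2 lowest, and the filled triangle, YOD1 library 3, is lowest for Jak1 (3.84) and highest for Jak3 (7.19).

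Among cytoplasmic tyrosine kinases the Janus kinases held upper to middle ranks. Of 29 such genes in the table, ordered by mean level in the controls, Tyk2 was at place 6, Jak1 at 8, Jak3 at 11 and Jak2 at 15. Tnk2, Csk and Src led, at 62.3, 44.9 and 40.3 FPKM in the controls. In the YOD1 libraries Tyk2 was again at place 6, Jak1 at 10, Jak3 at 11 and Jak2 at 17. Against all 11483 genes that passed the filter on low values (1 FPKM or more in 3 or more libraries), the control mean of Tyk2 exceeded that of 58.8% of genes, Jak1 49.7%, Jak3 38.4% and Jak2 12.7%. Of the other cytoplasmic tyrosine kinases 14 were tested and 0 passed limma, with a median log2 fold change of -0.06. At an unadjusted limma p under 0.05 there were 2 higher and 0 lower, against 7.87% and 13% of all tested genes.

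**Figure D2:**
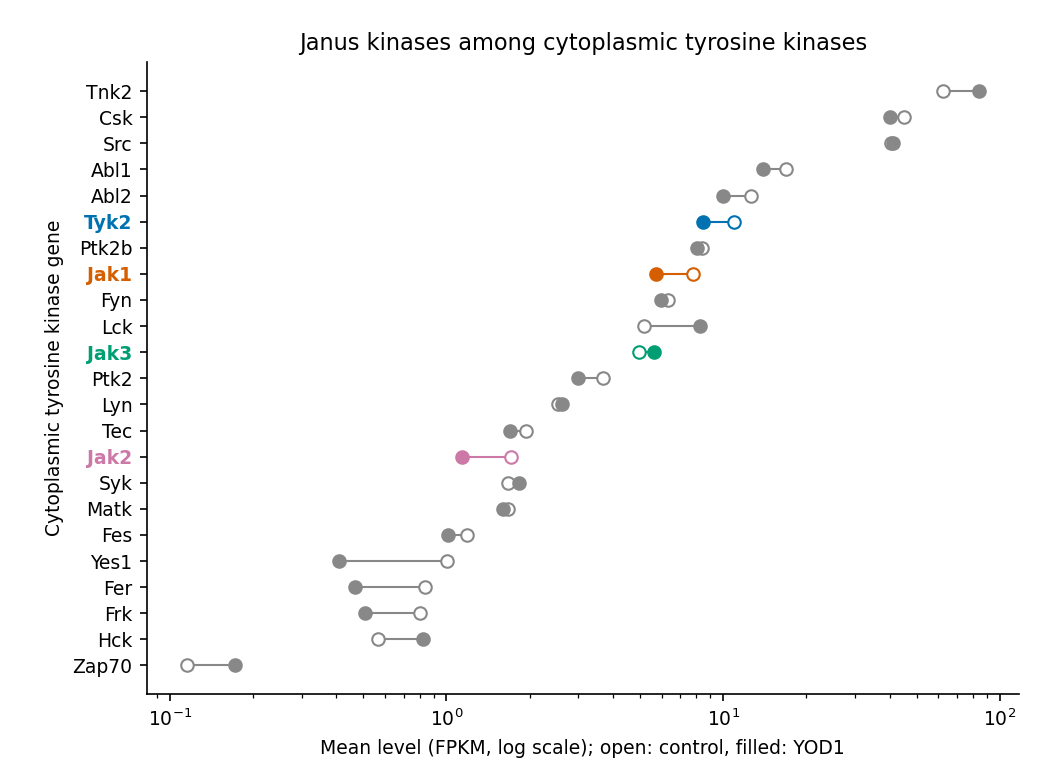
Mean level in FPKM (horizontal log axis) of cytoplasmic tyrosine kinase genes with a control mean above 0.1, control open and YOD1 filled, ordered by control mean from the top. Tyk2 (10.97 and 8.44) and Jak1 (7.76 and 5.73) lie in the upper part, Jak3 (4.96 and 5.64) below them and Jak2 (1.71 and 1.14) lowest of the 4.

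The comparison of YOD1 with control asks whether the transcripts of these kinases differ with YOD1 overexpression. All 4 members passed the filter, and 0 of 4 passed limma's test over all genes at an adjusted p of 0.05 (0.479% of tested genes did: 0.444% higher and 0.0348% lower). At an unadjusted limma p under 0.05 there was 1 member, Tyk2, in the lower direction, against 13% of tested genes in that direction, and 0 members in the higher one, against 7.87%. Over all tested genes that is 904 higher and 1494 lower, a split that turned to 1356 higher and 869 lower after median-ratio scaling. Tyk2 and Jak1 had all 3 YOD1 libraries below all 3 controls, which held for 19.1% of tested genes, and 0 members had them above, against 9.77%. Fold changes below are differences of the mean log2(FPKM + 1), YOD1 minus control, a scale that understates the change of low genes. The median over the 4 members was -0.33, and over all tested genes it was -0.10.

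Tyk2, the kinase of the type I interferon receptor chain IFNAR1, stood at 7.56, 8.96 and 8.80 FPKM in YOD1 libraries 1 to 3, against 10.2 to 12.1 FPKM in the controls. Means were 10.97 ± 1.04 and 8.44 ± 0.765 FPKM (SD, n = 3 each), a ratio of 0.770. All YOD1 libraries lay below all controls. The log2 fold change was -0.34 with an SE of 0.14 and a 95% interval from -0.66 to -0.02, and it did not pass (limma adjusted p = 0.222). After median-ratio scaling, which divides each library by its median ratio to the mean profile of all libraries, the values were 9.86, 12.02 and 9.63 in the controls and 7.59, 8.84 and 9.78 in the YOD1 libraries. The groups then overlapped, at -0.24 on the log2 scale (limma adjusted p = 0.403).

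Jak1, shared by most cytokine receptors that use Janus kinases, stood at 6.11, 7.24 and 3.84 FPKM in YOD1 libraries 1 to 3, against 7.28 to 8.06 FPKM in the controls. The groups did not overlap, but YOD1 library 2 and control 2 were apart by only 7.24 against 7.28 FPKM, and YOD1 library 3 lay far below the rest. Means were 7.76 ± 0.415 and 5.73 ± 1.73 FPKM (SD, n = 3 each). The log2 fold change was -0.41 with an SE of 0.20 and a 95% interval from -0.87 to 0.04 (limma adjusted p = 0.268). Without YOD1 library 3 it was -0.19 (limma adjusted p = 0.465), and without YOD1 library 2 it was -0.58 (limma adjusted p = 0.164). After median-ratio scaling Jak1 was the 1 member whose groups did not overlap, where 11.9% of tested genes lay lower in this way.

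Jak2, the kinase named in the series title, stood at 1.23, 1.301 and 0.890 FPKM in YOD1 libraries 1 to 3, against 1.59, 1.16 and 2.39 FPKM in the controls. The groups overlapped: control 2 was below YOD1 libraries 1 and 2, and control 3 was the highest value. Means were 1.71 ± 0.629 and 1.14 ± 0.219 FPKM (SD, n = 3 each). The 95% interval of the log2 fold change ran from -0.75 to 0.11 around a value of -0.32 (limma adjusted p = 0.338). The fold change was -0.15 without control 3 and -0.47 without control 2 (limma adjusted p = 0.672 and 0.397). Of the 4 genes Jak2 has the lowest level, and on a pseudocount of 0.1 in place of 1 its fold change was -0.51.

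Jak3, the partner of the common gamma chain, was the 1 member with a fold change above 0. It stood at 4.36, 5.38 and 7.19 FPKM in YOD1 libraries 1 to 3 and at 4.32, 5.70 and 4.85 FPKM in the controls. YOD1 libraries 1 and 2 lay within the range of the controls, and only YOD1 library 3 lay above it. Means were 4.96 ± 0.698 and 5.64 ± 1.44 FPKM (SD, n = 3 each), giving 0.14 on the log2 scale and a 95% interval from -0.29 to 0.57 (limma adjusted p = 0.682). Without YOD1 library 3 the fold change was -0.021 (limma adjusted p = 0.956).

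**Figure D3:**
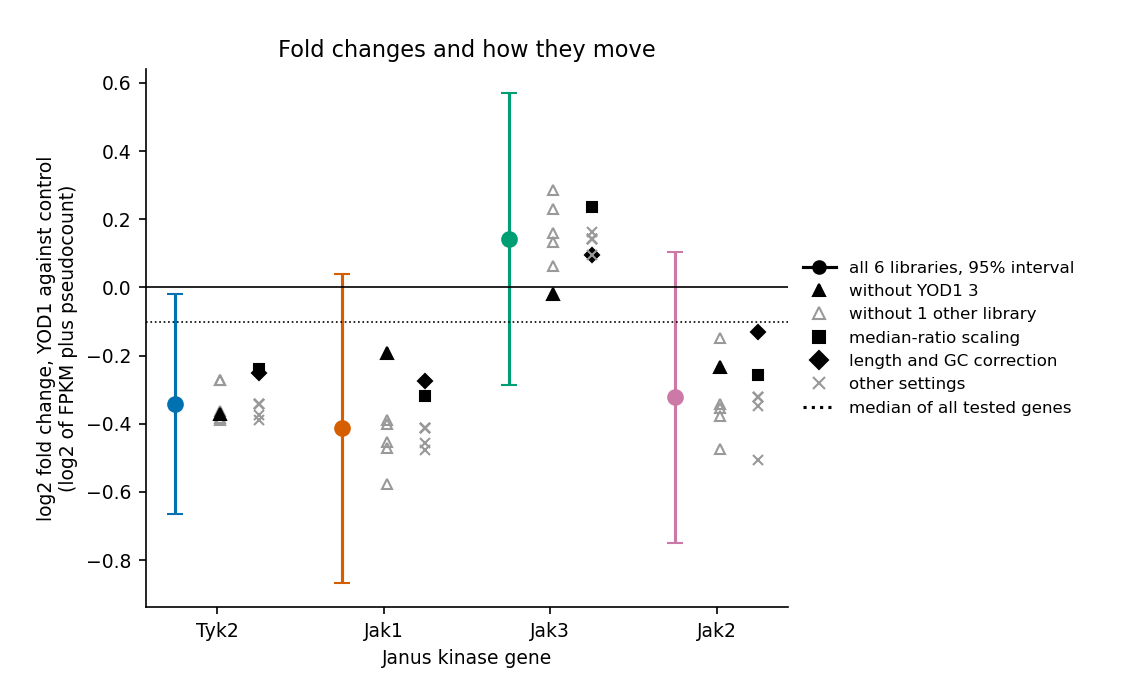
Log2 fold change of each Janus kinase gene, YOD1 against control (vertical axis): coloured points with 95% limma intervals from all 6 libraries, triangles with 1 library left out and the remaining symbols under other processing. Without YOD1 library 3 (black triangles) Jak1 lies at -0.19 and Jak3 at -0.021, while Tyk2 lies between -0.39 and -0.24 under all settings shown.

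The authors' deposited table gives log2 ratios of the group means of -0.38 for Tyk2, -0.44 for Jak1, -0.59 for Jak2 and 0.19 for Jak3. Its q-values are 0.649, 0.541, 0.541 and 0.848 in the same order, and it lists Yod1 with q = 0.031.

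In YOD1 library 3, genes of like length or base composition also stood away from the controls, though not always in the direction of the member. Lengths and GC contents here are those of the longest matching transcript in GENCODE M21. Jak1 (4906 bp), Jak2 (5030 bp) and Tyk2 (4828 bp) fell in the ninth of 10 length bins. Its 1136 genes had a median log2 fold change of -0.23 over all YOD1 libraries. In YOD1 library 3 alone their median difference from the control mean was -0.43. Jak3 (4049 bp) fell in the seventh bin, with a median of -0.14 over all YOD1 libraries and of -0.27 in YOD1 library 3 alone. In YOD1 library 3 the genes of the GC bin of Jak2 (44.3% GC) had a median difference from the control mean of -0.49, and Jak2 stood at -0.50. The GC bin of Jak1 (47.6%) had a median of -0.32 in that library and Jak1 stood at -0.85. The GC bin of Jak3 (61.0%) had a median of 0.12 and Jak3 stood at 0.47. Tyk2 (57.0%) stood at -0.28 there, against 0.06 for its GC bin. After a trend of length and GC content was removed from each library, the fold changes were -0.25 for Tyk2, -0.27 for Jak1, -0.13 for Jak2 and 0.10 for Jak3 (limma adjusted p = 0.194, 0.261, 0.631 and 0.649). The part of length and base composition in the values of single members was not tested further.

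The summed level of the 4 genes was 24.6, 26.3 and 25.3 FPKM in the controls and 19.3, 22.9 and 20.7 FPKM in the YOD1 libraries. Every YOD1 library was below every control, with means of 25.4 ± 0.859 and 20.96 ± 1.82 FPKM (SD, n = 3 each). A two-sided exact permutation test gave p = 0.1, the smallest that 3 against 3 libraries allow. After median-ratio scaling the sums overlapped (22.8 to 26.01 for the controls, 19.3 to 23.02 for YOD1, exact permutation p = 0.2).

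Tyk2 made up 40.1% to 46.2% of the sum in control libraries and 39.2% to 42.5% of it in YOD1 libraries. Jak1 made up 27.7% to 32.8% and 18.5% to 31.7%. Jak2 made up 4.40% to 9.45% and 4.29% to 6.38%. The share of Jak3 was 17.6%, 21.7% and 19.2% in the controls and 22.6%, 23.5% and 34.7% in the YOD1 libraries, the only share whose groups did not overlap (exact permutation p = 0.1, adjusted over the 4 shares 0.4). Of the 6 log2 ratios between members, that of Jak3 to Tyk2 was the only one whose groups did not overlap. It was -1.30, -1.09 and -1.07 in the controls and -0.80, -0.74 and -0.29 in the YOD1 libraries (exact permutation p = 0.1, adjusted over the 6 ratios 0.6). Shares and ratios within a library do not depend on its scaling, and with 3 libraries a group none of them could pass a threshold of 0.05.

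**Figure D4:**
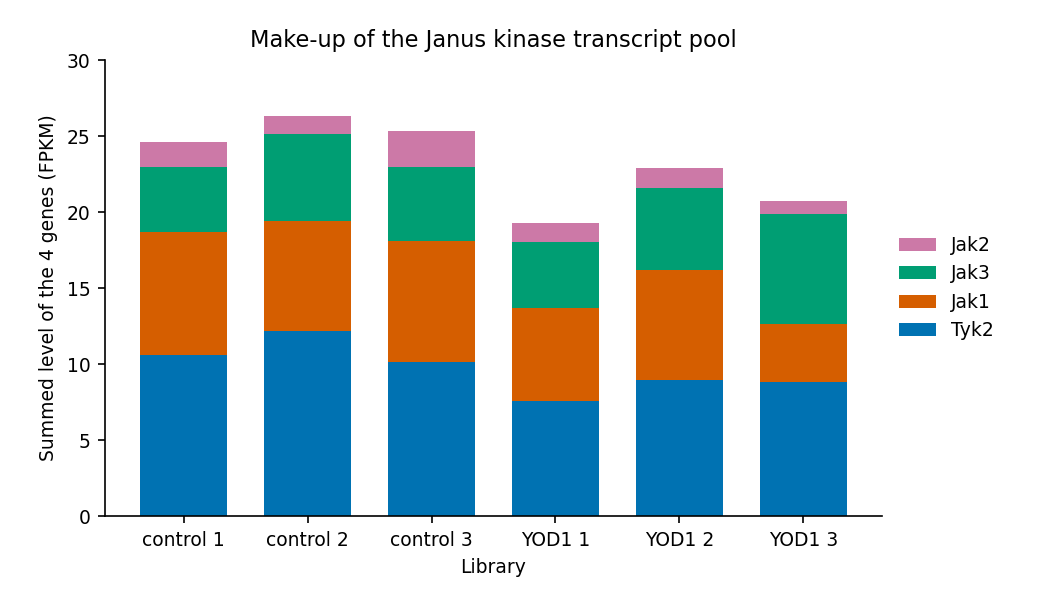
Summed level of the 4 Janus kinase genes in FPKM (vertical axis) in each of the 6 libraries, with bars starting at 0 and divided by gene. The bars reach 24.6 to 26.3 for controls and 19.3 to 22.9 for YOD1, and the Jak3 section makes up 34.7% in YOD1 library 3.

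Across the 6 libraries, Jak1 and Jak2 varied in the same direction (Pearson r of log2(FPKM + 1) 0.71) and Jak1 and Jak3 in opposite ones (-0.74), while Jak3 and Tyk2 were nearly unrelated (0.06). These are descriptions over 6 libraries that share the group difference and the properties of YOD1 library 3. The genes of the closest pattern among 11483 were Pkd2, Gm20604, Chd6, Ipo8 and Atp11b for Jak1 (r from 0.998 to 0.999). For Tyk2 they were Tom1l2, Arhgap39, Pkd1, Nckipsd and Bag3 (0.990 to 0.992). Pkd1 and Pkd2, the genes of the polycystins of tubular cells, stood at 17.7 and 12.5 FPKM and at 6.02 and 4.51 FPKM in control and YOD1. For Jak2 the closest were Gm14681, Hbegf, Pla2g7, Lta4h and Hgsnat (0.980 to 0.987), and for Jak3 they were Espn, Fbxl6, Zfp653, Wdr24 and Fcsk (0.981 to 0.996). The 5 genes closest to Jak3 had GC contents from 55.01% to 62.1%, and those closest to Tyk2 from 55.2% to 58.1%. Those closest to Jak1 were spread more widely, from 39.6% to 52.5%, as were those closest to Jak2, from 39.2% to 51.5%.

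Jak3 and Tyk2 share their loci with other genes, so their reads cannot be assigned with certainty. In GENCODE M21, Insl3, which encodes an insulin-like hormone, lies inside the Jak3 gene on the same strand, and 64.9% of its exon bases are also exon bases of Jak3. Insl3 stood at 2.90, 3.24 and 0.168 FPKM in controls 1 to 3 and at 0, 0.0349 and 0.0870 FPKM in YOD1 libraries 1 to 3. Its groups did not overlap, and controls 1 and 2 were far above control 3. It did not pass the filter and was not tested by limma; the authors' deposited table lists it with a log2 ratio of -5.69 and q = 0.000141. The sources used here do not say how fragments of the shared exons were split between both genes. An antisense gene, 1700084C06Rik, covers 24326 bp of the Tyk2 locus on the other strand and shares 554 exon bases with it, and its values were not analysed here. The strand setting of the libraries is not given either. Jak1 overlaps only the end of Raver2 in exons (4 bases), and Jak2 overlaps no annotated gene.

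The promoters of Tyk2 and Jak3 are shown because these genes had the only ratio whose groups did not overlap. The sequences are RefSeq's for build GRCm38.p6, which is not the build named in the submitters' notes, and run 5′ to 3′ from 250 bases before to 50 after the annotated start. All 4 members had 1 such entry. Both strands were searched for the STAT element GAS (TTCNNNGAA), a core of the interferon-stimulated response element, ISRE (GAAANNGAA), the cyclic AMP element (TGACGTCA), the CCAAT box (CCAAT) and the GC box (GGGCGG), and capitals mark the matches, which do not overlap each other. The Tyk2 window lies at chr9:21131226-21131525 on the minus strand and the Jak3 window at chr8:71676133-71676432 on the plus strand.
Tyk2: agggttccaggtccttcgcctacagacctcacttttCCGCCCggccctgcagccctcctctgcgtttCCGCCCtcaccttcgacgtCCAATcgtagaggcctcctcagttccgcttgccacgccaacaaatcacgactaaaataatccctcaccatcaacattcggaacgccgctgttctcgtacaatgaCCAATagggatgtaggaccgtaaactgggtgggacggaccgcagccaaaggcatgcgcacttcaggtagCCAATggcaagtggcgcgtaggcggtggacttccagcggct
Jak3: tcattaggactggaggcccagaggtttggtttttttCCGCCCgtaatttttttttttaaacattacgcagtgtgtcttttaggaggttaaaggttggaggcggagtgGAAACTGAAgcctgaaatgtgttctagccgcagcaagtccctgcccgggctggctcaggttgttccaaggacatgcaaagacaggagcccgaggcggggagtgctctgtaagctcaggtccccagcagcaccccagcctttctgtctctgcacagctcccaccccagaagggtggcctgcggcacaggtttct

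No GAS letters were found in the 4 windows, where 8.30% of 32851 promoter windows hold them. The ISRE core was found in 1 of the 4, that of Jak3, starting 143 bases before the start, and in 8.56% of all windows. Among 14 interferon-response genes with a window, 8 held it, Isg15 and Ifit3 among them. The Tyk2 window held 3 CCAAT boxes and 2 GC boxes, and the Jak3 window 1 GC box and no CCAAT box. A CCAAT box is present in 37.4% and a GC box in 35.7% of all windows. Jak1 held 1 cyclic AMP element (1.79% of all windows), 1 CCAAT box and 1 GC box, and Jak2 3 GC boxes in a window of 81.0% GC. These matches are descriptions of the letters only.

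The annotation deposited with the table puts all 4 members in 5 KEGG pathways, among them JAK-STAT signalling, necroptosis and Th17 cell differentiation. The GO term type 1 angiotensin receptor binding, for the receptor through which Ang II acts on tubular cells, is attached to Jak2 and Tyk2 only. Of 3 angiotensin receptor genes looked for, 2 had a value, and both were near 0. Agtr1a, a type 1 receptor gene, ranged from 0 to 0.0835 FPKM. Agtr2, the type 2 receptor gene, was listed at 0 in 5 libraries and at 0.0420 FPKM in YOD1 library 1. The other type 1 receptor gene, Agtr1b, had no value.

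Receptors that carry Janus kinases were unevenly present. The interferon and IL-10 receptor chains, which bind JAK1 with TYK2 or JAK2, were unevenly expressed, and 7 of 10 passed the filter. Ifnar1 stood at 14.9 and 12.7 FPKM in control and YOD1 (means of 3 libraries), Ifnar2 at 13.6 and 12.5, Ifngr1 at 11.5 and 11.01, Ifngr2 at 13.04 and 9.97, and Il10rb at 13.6 and 10.5. The IL-10 binding chain Il10ra stood at 0.135 and 0.128 FPKM, Il20ra at 0.0403 and 0.0101 and Il20rb at 0.145 and 0.142. All 7 tested chains had a fold change below 0, as did 7307 of 11483 tested genes, and 0 passed limma's test, with a median of -0.25. At an unadjusted limma p under 0.05 there were 0 higher and 2 lower, against 7.87% and 13% of all tested genes. Of the gp130 group, the shared chain Il6st stood at 12.5 and 10.5 FPKM, and of the other chains Il11ra1 stood at 6.13 and 5.38, Il27ra at 1.296 and 1.33 and Cntfr at 1.14 and 1.66 FPKM. Lifr and Osmr stayed under 0.4 FPKM in every library. The 4 tested genes of that group had a median of -0.07, with 0 calls by limma and 0 at an unadjusted p under 0.05. Of the hormone-type receptors that use JAK2, Epor stood at 6.21 and 6.32 FPKM and Ghr at 0.256 and 0.390 FPKM. Only 2 of that list's 11 genes in the table passed the filter, and the other was Crlf2, the thymic stromal lymphopoietin receptor. It stood at 1.25, 0.873 and 1.80 FPKM in the controls and 5.08, 5.67 and 2.60 FPKM in the YOD1 libraries (log2 fold change 1.21, limma adjusted p = 0.076) and is named here after its values were seen. The authors' deposited table lists Crlf2 with q = 3.38e-05, from a test that is not given.

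The receptor chain that JAK3 binds was scarce. Il2rg, the common gamma chain, stood at 0.121, 0.227 and 0.274 FPKM in the controls and at 0.241, 0.595 and 0.700 FPKM in the YOD1 libraries, in overlapping groups and below the filter. Jak3 at 4.32 to 7.19 FPKM thus lay above it in every library. Il4ra, which pairs with that chain, stood at 6.35 and 6.10 FPKM. The 3 tested genes of the common gamma and IL-4 group had a median of -0.23, with 0 calls by limma and 0 at an unadjusted p under 0.05. Of 9 leukocyte markers with a value, 3 averaged at least 1 FPKM, the macrophage genes Lyz2, Cd68 and Csf1r. Lyz2 lay at 10.5 to 18.7 FPKM with YOD1 and 1.47 to 9.04 FPKM in the controls, without overlap (1.42 on the log2 scale, limma adjusted p = 0.158). Cd68 lay at 12.6 to 22.9 FPKM in the controls and 12.3 to 15.3 FPKM with YOD1, and Csf1r averaged 4.39 and 4.59 FPKM, in overlapping groups. The defining marker Ptprc reached at most 0.0708 FPKM (means 0.0267 and 0.0556), Cd3e 0.0141 and Adgre1 0.165. Adgre1 was higher without overlap, with means of 0.0259 and 0.121 FPKM. The leukocyte markers summed to 24.7 to 35.7 FPKM in the controls and 28.1 to 39.3 FPKM in the YOD1 libraries.

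The STAT genes had values on either side of 0. Stat3, Stat5a, Stat5b and Stat6 lay lower in all YOD1 libraries than in all controls, at 9.57 and 7.02, 8.84 and 6.76, 18.4 and 14.4, and 25.1 and 18.8 FPKM in control and YOD1. Over all tested genes 19.1% lay lower in this way. Stat2, which carries type I interferon signals, was highest in YOD1 library 2, the library with the most Yod1. It stood at 6.60, 14.7 and 6.47 FPKM in YOD1 libraries 1 to 3, against a control mean of 7.74 FPKM, and the groups overlapped (limma adjusted p = 0.765). Stat4 was listed at 0 in all libraries but 1. Of 6 tested STATs 0 passed (limma adjusted p at least 0.188), and their median was -0.34, against -0.10 over all tested genes. At an unadjusted limma p under 0.05 there were 4 lower, a direction that held 13% of all tested genes.

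Among the inhibitors of the kinases 0 genes passed limma. Cish, a STAT5-induced SOCS gene, stood at 2.43, 2.51 and 1.83 FPKM in the controls and 1.28, 1.21 and 1.52 FPKM in the YOD1 libraries, without overlap (log2 fold change -0.47, limma adjusted p = 0.153). Socs3 stood at 8.21 and 7.95 FPKM and Socs1 and Socs2 stayed under 1 FPKM. Of 5 tested SOCS genes 0 passed limma (2 lower at an unadjusted p under 0.05, against 13% of all tested genes), and their median was -0.38. Among phosphatases, PIAS proteins and ligases 0 of 11 passed (4 lower at an unadjusted limma p under 0.05, against 13% of all tested genes, median -0.18). Pias3, an inhibitor of STAT3, had the smallest adjusted p of this list, at 21.8 and 13.8 FPKM without overlap (log2 fold change -0.62, limma adjusted p = 0.081), and is named after its values were seen. The authors' deposited table lists Cish and Pias3 with q = 0.153 and 0.106, from a test that is not given. Ptpn1 stood at 25.3 and 25.9 FPKM, Ptpn2 at 6.53 and 5.73, Ptpn6, a phosphatase best known from blood cells, at 38.9 and 37.2, and Ptpn11 at 26.6 and 19.4. Sh2b3, an adaptor that restrains JAK2, stood at 11.5 and 8.30 FPKM.

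The chaperones that fold Janus kinases were not alike. Hsp90aa1, the inducible HSP90 gene, stood at 37.4, 28.9 and 36.5 FPKM in the controls and 21.3, 21.3 and 12.8 FPKM in the YOD1 libraries, without overlap (-0.89 on the log2 scale, limma adjusted p = 0.090). The authors' deposited table lists Hsp90aa1 with q = 0.00564, from a test that is not given. Hsp90ab1, the constitutive gene, stood at 1801 and 1579 FPKM and the co-chaperone Cdc37 at 51.1 and 54.7 FPKM, with overlapping groups in both. Of 8 tested adaptors and chaperones 0 passed limma (1 higher and 2 lower at an unadjusted p under 0.05, against 7.87% and 13% of all tested genes).

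Of 14 tested interferon-response genes, which lie downstream of JAK1 and TYK2, 5 were called higher by limma (0.444% of all tested genes were) and 0 lower, with a median of 1.63 (13 higher at an unadjusted p under 0.05, against 7.87% of all tested genes). Without the filter on low values limma called 0 of the 18 listed genes (14 at an unadjusted p under 0.05), with median-ratio scaling 9 and after length and GC correction 2. With 1 library left out it called 3 (without control 1 or control 2) to 8 (without YOD1 library 2 or 3). Irf7 stood at 26.9, 93.3 and 38.2 FPKM in the YOD1 libraries against 2.73 to 3.86 FPKM in the controls, Isg15 at 23.4, 112 and 33.3 against 6.03 to 7.91, and Usp18 at 7.84, 55.9 and 8.47 against 1.12 to 1.51. Irf7, Ifi27, Ifitm3, Psmb8 and Bst2 rose by 3.47, 1.89, 2.27, 1.45 and 1.37 on the log2 scale, and Isg15 and Usp18 did not pass (limma adjusted p = 0.0501 and 0.0759). The authors' deposited table lists Isg15 and Usp18 with q = 0.000522 and 0.000485, from a test that is not given. YOD1 library 2 was highest of the 6 for Irf7, Isg15 and Usp18. In this 1 library Jak2 and Jak3 lay within the range of the controls, and Jak1 (7.24) and Tyk2 (8.96) lay below it. Any relation between these values was not tested. Of the leukocyte markers with a value, Lyz2 and Adgre1 were also higher in all YOD1 libraries than in all controls. Adgre1 reached at most 0.165 FPKM. The groups of the other leukocyte markers overlapped, with the YOD1 mean lower for Cd68 and Cd3e and higher for the rest. The part of leukocyte markers in the interferon-response values was not tested. Of 12 STAT3 and STAT5 response genes 2, Saa3 and Cebpd, were called higher and 0 lower, with a median of -0.02. These response lists were chosen with earlier results of these data known, so their direction is no independent evidence. Ligands of the receptors were mostly low, with exceptions. Clcf1 stood at 12.6 and 11.4 FPKM in control and YOD1 (means of 3 libraries), Csf3 at 11.7 and 9.18 and Lif at 9.78 and 6.58. Ifnb1 was listed at 0 in 5 libraries and at 0.281 FPKM in YOD1 library 3, Il6 stayed under 0.2 FPKM, and 5 of 22 ligand genes in the table passed the filter, with 0 calls by limma and 0 at an unadjusted p under 0.05.

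Over the 132 genes that the deposited annotation places in the KEGG JAK-STAT pathway, the 4 kinases included, 76 were tested and 0 passed limma over all genes. At an unadjusted p under 0.05 there were 4 higher and 17 lower, against 7.87% and 13% of all tested genes. Of the 76, 21 lay lower and 7 higher without overlap of the groups (19.1% and 9.77% of all tested genes), and their median was -0.19. After median-ratio scaling 1 of them passed and the median was -0.099, 1 passed without YOD1 library 3 and 3 without control 3.

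**Figure D5:**
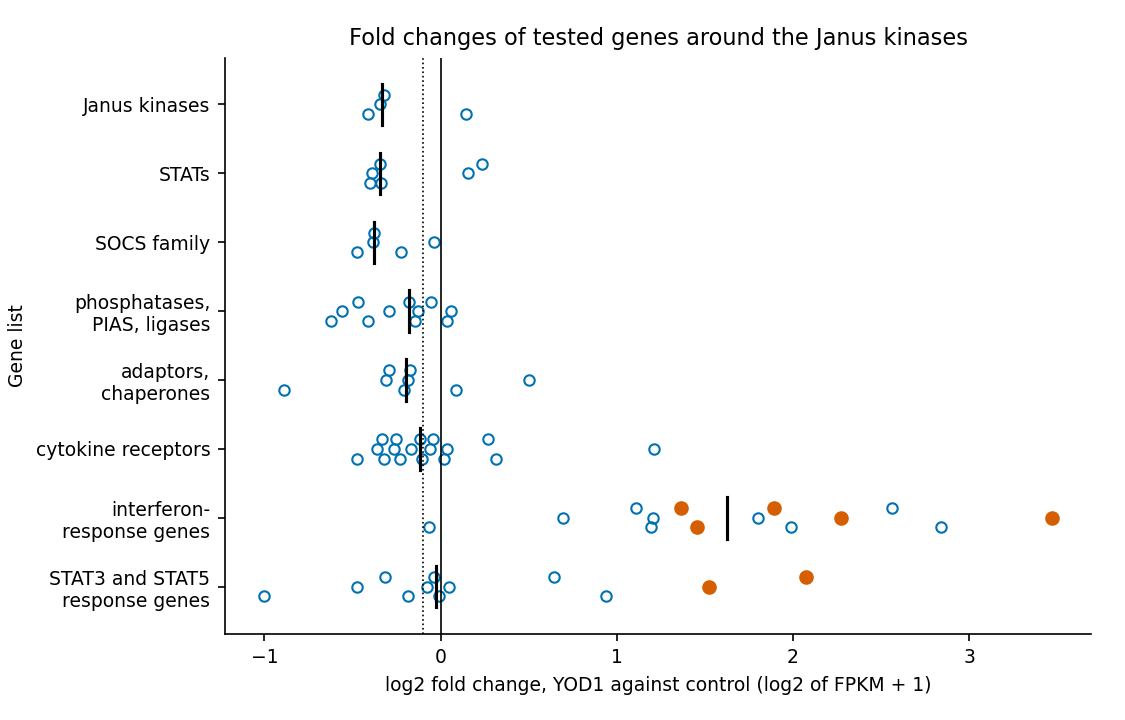
Log2 fold change (horizontal axis) of the tested genes of each list (rows), open where limma's adjusted p was at least 0.05 and filled where it was below, with the list median as a bar and the median of all tested genes (-0.10) as a dotted line. The Janus kinases (median -0.33) lie beside the STATs (-0.34) and SOCS genes (-0.38), and the interferon-response genes (1.63) lie to the right.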

How the data were processed

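The authors deposited 1 table that holds, per the file headers, FPKM for each gene and library and, for each gene, a fold ratio, its log2, a p-value and a q-value. HISAT2 2.0, StringTie 1.3.0, Bowtie 0.12.2 and build mm8 are listed, without roles, in the submitters' processing notes. The test behind the deposited p-values and the strand setting are not given in the sources used here. Counts were planned for, but the table holds FPKM only, so count tests were not used. 

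Values were transformed to log2(FPKM + 1). A gene was tested if 3 or more libraries reached 1 FPKM (11483 of 28789), which includes all 4 members. limma 3.58.1 in R 4.3.3 compared YOD1 with control over all of them (two-sided, with a trend of variance on level, Benjamini-Hochberg adjusted p under 0.05), and the fit was tested on simulated data. Sums, shares and ratios were compared by exact permutation over libraries (scipy 1.17.1). Levels of the members may be compared because FPKM is per length. Lengths and GC came from GENCODE M21 by transcript identifier (99.2% of tested genes). Promoters were matched by symbol.

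Members and gene lists were chosen with earlier results of these data known. The genes named were the 4 members, Yod1, a set list of pathway genes (1 of which is not reported here), list members past the threshold and the 5 genes of highest correlation with each member; Crlf2, Pias3, some receptor chains, overlapping genes, markers and some ligands were added as examples after their values were seen. Alternatives were another filter, pseudocount, scaling, length and GC correction, rRNA genes left out, no variance trend, an added fold threshold, the replicate block and each library left out.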

Additional observations from a re-analysis of the deposited data

How the results depend on the processing

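Tyk2, Jak1 and Jak2 kept a fold change below 0 in all alternatives in which they were tested, and 0 of the 4 members passed in any of them. Jak3 went from 0.14 to -0.021 without YOD1 replicate 3 and stayed above 0 in the others. With 1 library left out, Tyk2 lay between -0.39 and -0.27, Jak1 between -0.58 and -0.19, Jak2 between -0.47 and -0.15 and Jak3 between -0.021 and 0.29. The difference in the summed level (YOD1 minus control, -4.44 FPKM) ran from -5.40 to -3.59 FPKM when 1 library was left out and was -2.65 with median-ratio scaling. At a filter of 5 FPKM, Jak2 was not tested.

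Counts over the whole table moved more. In place of 51 genes called higher and 4 lower there were 0 and 0 without a filter (by limma, with 28789 genes tested, and 1411 and 2016 at an unadjusted p under 0.05), 160 and 9 with median-ratio scaling, 29 higher without rRNA genes and 13 higher and 5 lower after length and GC correction, and 2 lower with an added fold threshold. With 1 library left out there were 17 (without control 2) to 145 (without control 3) higher and 1 to 97 lower. Without control 1 there were 30 and 1, without control 3 145 and 97, without YOD1 library 1 40 and 1, and without YOD1 library 3 107 and 25. In place of 7 pathway list genes, 0, 13 and 4 were called without a filter, with median-ratio scaling and after length and GC correction, and 4 to 12 with 1 library left out. The replicate block gave 33 higher and 8 lower and no call among the members (adjusted p 0.261 for Tyk2 and 0.301 for Jak1). The deviations of same-numbered libraries correlated with 0.30, -0.12 and -0.11, and those of differently numbered ones with -0.41 to 0.34. With deviations taken within groups of 3 libraries, these values cannot tell whether the numbers pair the samples. What made the counts move was not tested. Some alternatives also changed the number of genes or samples tested. FPKM carries no depth, so the counting error of Jak2 and other low genes is unknown.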
